A study of Owenia fusiformis with 14 samples.

Results

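The vehicle controls of an RNA-seq experiment on blastulae of *Owenia fusiformis*, a marine annelid, were set against each other: 2 Mock libraries against 4 DMSO libraries, 6 of the 14 libraries of the series. Members were taken by treatment label, as the 2 libraries labelled Mock, the 2 of 0.2% DMSO and the 2 of 0.4% DMSO. Mock embryos received the 1x hydrochloric acid and serum albumin solution that served as solvent for the recombinant proteins, from 4 to 6 h post fertilisation (hpf). The 0.2% DMSO embryos received dimethyl sulfoxide, the solvent of the inhibitors, from 4 to 6 hpf, and the 0.4% DMSO embryos from 3 to 6 hpf, so this second control differed from Mock in the start of treatment as well as in solvent. The other 8 libraries, 2 each, were from embryos given recombinant BMP4 (rBMP4) or recombinant Activin A (rActivin A) without DMSO, 20 µM DMH1 from 4 to 6 hpf, or 40 µM SB431542 from 3 to 6 hpf. Both inhibitors were dissolved in DMSO. The sample labels spell the last inhibitor SB435421. All RNA was from whole embryos, so fewer cells of a type and less RNA per cell cannot be told apart. The labels do not say whether replicates were separate cultures or which treatments shared a batch of embryos, so p-values measure only the spread between these libraries, and vehicle and embryo batch cannot be told apart.

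BMPs are secreted ligands that bind type I and type II receptors, which phosphorylate SMAD1/5/8, and chordin is an extracellular antagonist that binds BMP ligands and keeps them from their receptors. In many bilaterians this pathway patterns the dorsoventral axis, and Activin ligands use a parallel branch with other receptors and SMADs. DMH1 inhibits type I BMP receptors and SB431542 inhibits type I receptors of the Activin and TGF-β branch. Each treatment in such an experiment is read against its own vehicle, so the distance between the vehicles sets what is seen if libraries are compared across them.

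The Mock libraries held 26135752 and 23025285 estimated counts and the DMSO libraries between 16316525 and 22730006, so that both Mock libraries were deeper than all 4 DMSO libraries. Mean fragment lengths overlapped, at 353 and 358 bases in Mock and 348 to 367 bases in DMSO. Thinned to the depth of the shallowest of the 6, the Mock libraries detected 23855 and 23863 genes and the DMSO libraries between 23635 and 23811. Of 27040 genes, 19755 passed the filter on low counts and were tested. The stage was not checked against marker genes, and 6 identifiers were paired with a name in the tables used here.

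Libraries without DMSO lay apart from those with it on the leading axis of variation. The activators fell on one side of it and the inhibitors on the other, so solvent, agent and embryo batch cannot be told apart there. The first principal component of log2 CPM, the counts of a gene scaled to library size with TMM, held 32.2% of the variance, and all 6 libraries without DMSO had positive values on it, while all 8 with DMSO had negative ones. Mock lay at 71.6 and 77.9 and rBMP4 at 81.9 and 72.4, rActivin A at 18.4 and 39.2, against -45.5 and -45.1 for DMH1, -63.6 and -63.9 for SB431542, -3.21 and -20.7 for 0.2% DMSO and -54.1 and -65.3 for 0.4% DMSO. Mock and rBMP4 were therefore neighbours at the positive end, and 0.2% DMSO lay closest to 0 among the DMSO libraries. The second component (20.8%) set rActivin A apart from the rest, and the third (14.1%) separated 0.2% DMSO and DMH1 from 0.4% DMSO and SB431542, which also differ in the start of treatment.

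**Figure D1:**
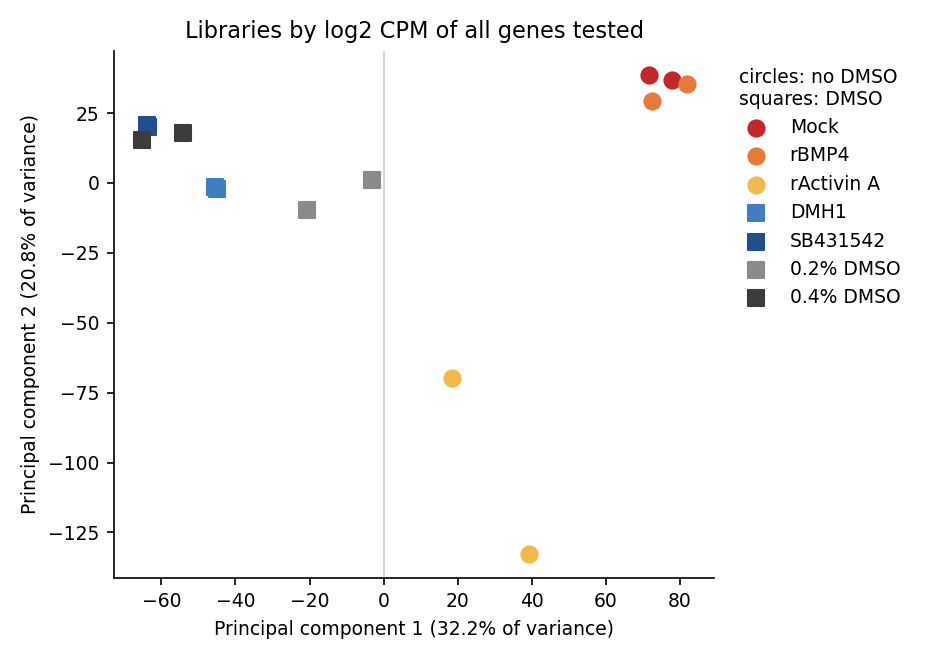
Principal components 1 and 2 of log2 CPM over the 19755 genes tested, with each point a library and the share of variance on each axis. The 6 libraries without DMSO (circles) lie right of 0 and the 8 with DMSO (squares) left of it, with Mock and rBMP4 together at the right.

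Pairwise distances also placed Mock next to rBMP4. As the root mean square of log2 differences over all genes tested, the 2 Mock libraries differed by 0.461, and Mock differed from rBMP4 by 0.570 to 0.618, from 0.2% DMSO by 0.940 to 1.10 from 0.4% DMSO by 1.06 to 1.17 and from rActivin A by 1.09 to 1.33. The DMSO replicates were themselves further apart, at 0.827 between the 0.2% pair and 0.542 between the 0.4% pair. Each Mock library was thus nearer to either rBMP4 library than to any DMSO library, and the 0.2% DMSO pair was the least alike of these 3 control pairs. Mean distances to Mock were 1.21 for rActivin A, 1.02 for 0.2% DMSO and 1.11 for 0.4% DMSO, with overlapping ranges.

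Mock and DMSO blastulae differed at many genes. Of the 19755 genes tested, 3372 were called between the 2 Mock and the 4 DMSO libraries (17.1%), with 1859 higher in Mock (9.41%) and 1513 lower (7.66%), at a Benjamini-Hochberg adjusted p below 0.05 in the quasi-likelihood test of edgeR. The median log2 fold change was 1.17 among the genes called higher and -0.95 among those called lower, against -0.05 over all genes tested. At least 2-fold changes were seen in 1112 of the genes called higher and 691 of those called lower. The number of calls rested on both Mock libraries: with Mock replicate 1 left out 79 genes were called, with Mock replicate 2 left out 42, and 37 genes were called whichever of the 6 libraries was left out. All 3372 genes kept the sign of their change in each of these 6 fits. Without 0.4% DMSO replicate 1, 2045 genes were called.

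**Figure D2:**
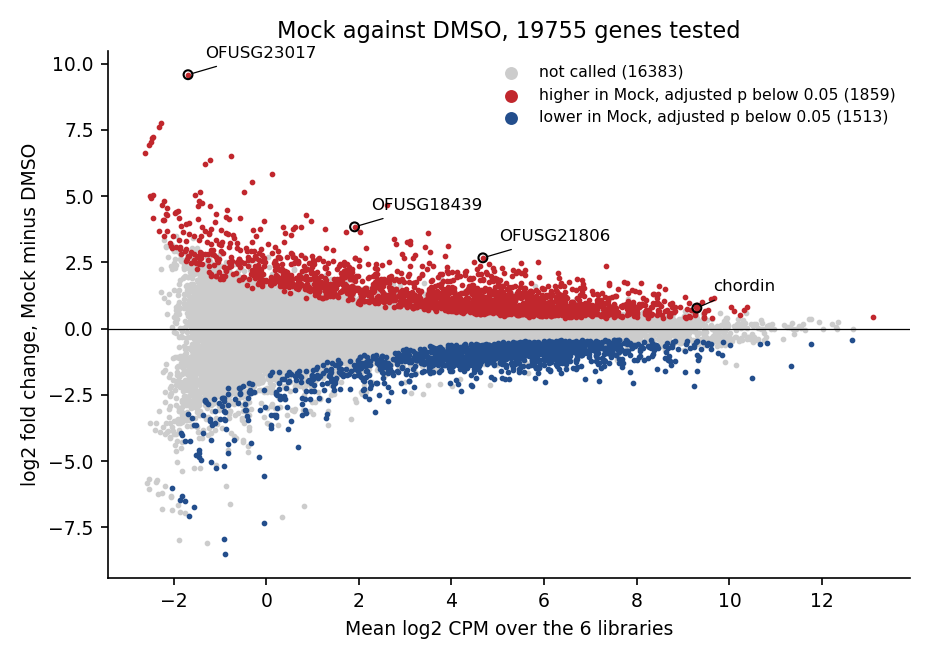
Log2 fold change of Mock minus DMSO against mean log2 CPM over the 6 libraries, 1 point per gene, with genes called higher in Mock (1859) in red, genes called lower (1513) in blue and the others in grey. *chordin* is called at a high level, and OFUSG23017, with no count in any DMSO library, has the largest fitted change.

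The number of calls differed between the DMSO controls. Against 0.2% DMSO alone, 4286 genes were called (2221 higher and 2065 lower in Mock), and against 0.4% DMSO alone, 10053 (5106 higher and 4947 lower). The 2 DMSO controls also differed from each other, with 3004 genes called between 0.4% and 0.2% DMSO (15.2%). When the 2 DMSO groups were fitted separately and Mock was set against their mean, 7385 genes were called, a fit in which the difference between the DMSO groups no longer counts as spread.

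Called genes were not spread evenly over level and length. In the lowest of 4 equal bins by mean CPM, 4.15% of genes were called higher and 1.64% lower in Mock, and in the highest bin 13.0% and 14.2%. By the length of the longest transcript, the share called higher was 6.00% in the shortest of 4 bins and 14.1% in the longest, whereas the share called lower was 7.20% and 7.30%. The median log2 fold change over all genes was -0.18 in the shortest bin and 0.07 in the longest. The part of transcript length in the calls was not tested.

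Counting genes by side, without a test, both Mock libraries lay beyond all 4 DMSO libraries at 9631 of 19755 genes (48.8%), above them at 5013 (25.4%) and below them at 4618 (23.4%). All but 1 of the 3372 called genes were among them. The same count for the other pairs, against the same 4 DMSO libraries, was 9026 genes for rBMP4 (45.7%), 6478 for rActivin A (32.8%), 6557 for DMH1 (33.2%) and 3568 for SB431542 (18.1%). Mock, a vehicle without agent, was beyond the DMSO range at more genes than any of the 4 treatments with an agent, and SB431542 at the fewest. The 4 DMSO libraries include the vehicles of DMH1 and SB431542 but not that of rBMP4 and rActivin A. This ranking is therefore not one of the effects of the agents.

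At the 5013 genes where Mock lay above DMSO, the pairs without DMSO lay mostly on the side of Mock or on neither side. Both rBMP4 libraries were above all 4 DMSO libraries at 3810 of them (76.0%) and below at 53 (1.06%), and both rActivin A libraries were above at 1544 (30.8%) and below at 490 (9.77%). The inhibitor pairs leaned the other way, with DMH1 above at 799 (15.9%) and below at 1173 (23.4%), and SB431542 above at 455 (9.08%) and below at 756 (15.1%). Over all genes tested, the shares above were 23.5% for rBMP4, 15.6% for rActivin A, 17.0% for DMH1 and 8.69% for SB431542. The shares below were 22.2%, 17.2%, 16.2% and 9.37% in the same order. All 5 counts use the same 4 DMSO libraries, so a gene that was low in these by chance would lie above in every pair.

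At the 4618 genes where Mock lay below DMSO, the picture was mirrored. Both rBMP4 libraries were below at 3547 (76.8%) and above at 9 (0.195%), and both rActivin A libraries were below at 1437 (31.1%) and above at 367 (7.95%). DMH1 was below at 777 (16.8%) and above at 1020 (22.1%), and SB431542 below at 346 (7.49%) and above at 475 (10.3%). Over all genes, the shares below were 22.2% for rBMP4, 17.2% for rActivin A, 16.2% for DMH1 and 9.37% for SB431542. The shares above were 23.5%, 15.6%, 17.0% and 8.69% in the same order. At 10.3% above, SB431542 was thus near its share over all genes.

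**Figure D3:**
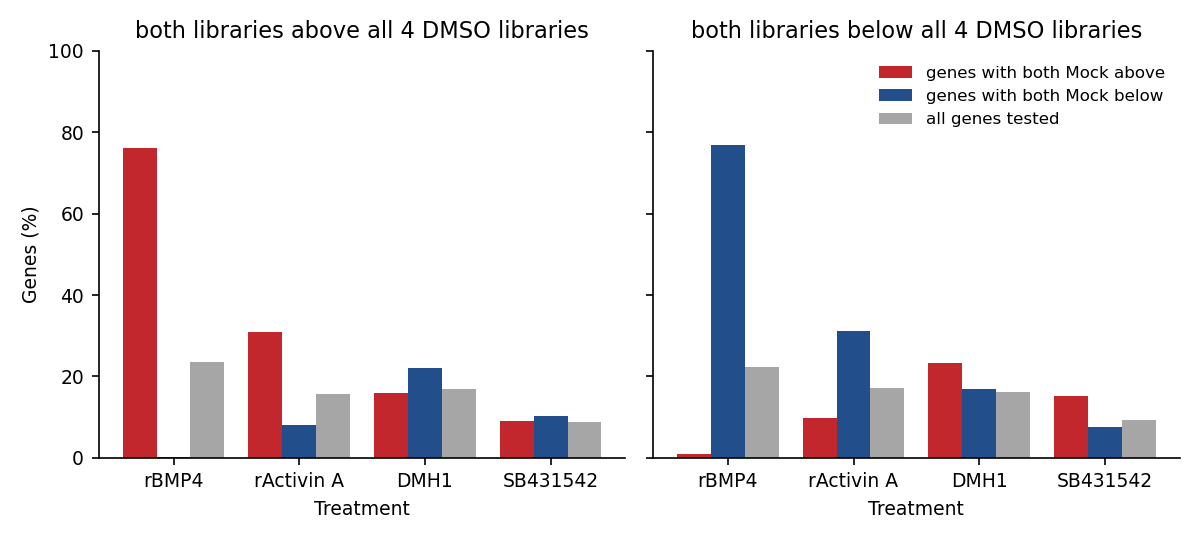
Percentage of genes at which both libraries of a treatment lay above (left) or below (right) all 4 DMSO libraries, for the 5013 genes with both Mock libraries above (red), the 4618 with both below (blue) and all 19755 genes tested (grey). rBMP4 stood on the side of Mock at 76.0% and 76.8% of these genes and rActivin A at 30.8% and 31.1%. DMH1 and SB431542 stood more often on the opposite side than on that of Mock. At the genes with Mock below, SB431542 stood above at near its share over all genes.

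The side counts were also described by degree of displacement at the called genes. Each library was placed on a scale from the mean of the DMSO libraries (0) to the mean of the Mock libraries (1), gene by gene. The genes were called from these same 6 libraries, and the 0 point is the same 4 DMSO libraries as in the side counts. Where these were low or high by chance, every other library would shift towards Mock, so the positions are no separate support. Over the 1859 genes called higher in Mock, the median position was 0.95 and 0.88 in the rBMP4 libraries, 0.24 and 0.33 in the rActivin A libraries, -0.20 and -0.17 in the DMH1 libraries and -0.13 in both SB431542 libraries. Over the 1513 genes called lower, it was 0.98 and 0.83 in rBMP4, 0.20 and 0.37 in rActivin A, -0.09 and -0.07 in DMH1 and -0.06 and -0.04 in SB431542. At these genes the median positions of the rActivin A libraries therefore lay between the 2 vehicles, closer to DMSO. The scale shows only the direction from DMSO to Mock and does not place these libraries between the vehicles over all genes. Over all genes tested, rActivin A differed from Mock by 1.09 to 1.33 in root mean square log2 difference, and the second component set it apart. Replicate 2 of rActivin A was also the shallowest library of the series, at 9416790 counts.

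**Figure D4:**
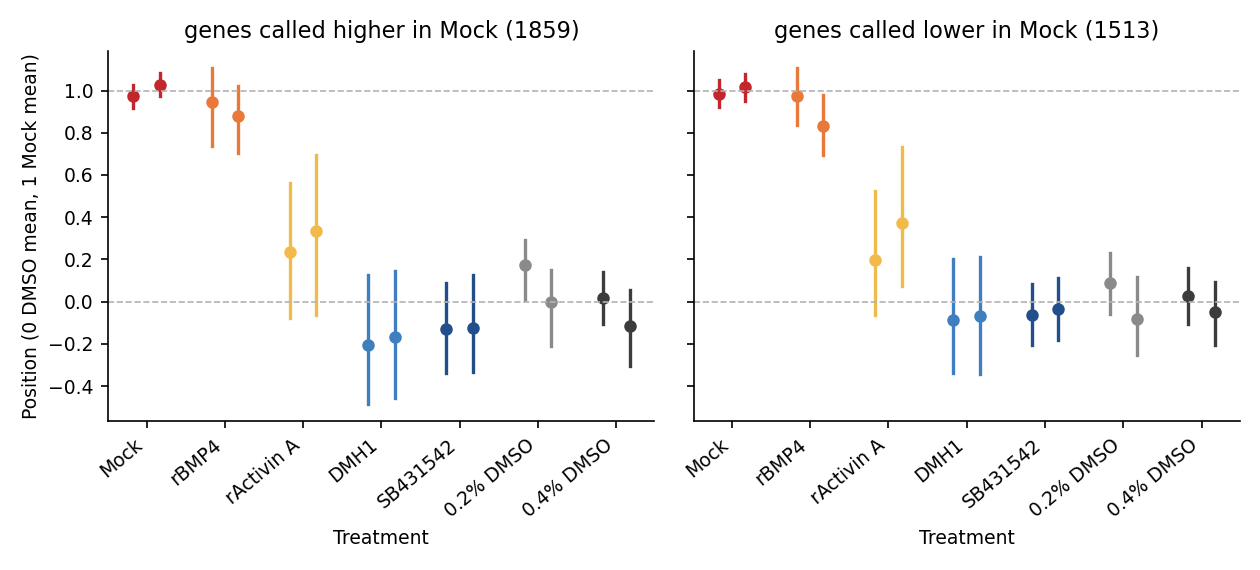
Position of each library between the DMSO mean (0) and the Mock mean (1) for genes called higher (left) and lower (right) in Mock, with points for the median over genes and bars for the middle 50% of genes. rBMP4 libraries lie near 1, rActivin A libraries between 0.20 and 0.37, and both inhibitor pairs at or below 0.

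Genes at which all libraries without DMSO were on one side of all libraries with DMSO could be counted over the whole series. The 6 Mock, rBMP4 and rActivin A libraries lay above all 8 DMSO-treated libraries at 1018 genes (5.15%) and below them at 831 (4.21%). Of the genes called in Mock, these were 610 of 1859 and 451 of 1513. With both rActivin A libraries set aside, an alternative chosen after seeing the data, the counts were 3150 above and 2827 below. Mock alone was apart from all 12 other libraries, above them at 1227 genes (6.21%) and below them at 784 (3.97%). At such a gene the protein-treated libraries can still lie beyond DMSO, between it and Mock.

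The other 8 libraries gave a comparison of embryos without and with DMSO that shares no library with Mock against DMSO. With rBMP4 and rActivin A set against DMH1 and SB431542, 9966 genes were called (50.4%), 4946 higher and 5020 lower, in a fit that kept the 4 treatments as separate groups. Fitted as 2 groups of 4, the form used for Mock against DMSO, 3604 genes were called. Of the 1859 genes called higher in Mock than in DMSO, 1465 (78.8%) were called higher here as well and 48 lower, against 25.0% called higher over all genes. Of the 1513 called lower in Mock, 1275 (84.3%) were called lower and 7 higher, against 25.4% called lower over all genes. With 2 groups of 4, an alternative for this count added after seeing the data, 951 genes were called higher and 579 lower in both comparisons. With Mock replicate 1 or 2 left out, the genes called one way in both fell to 70 and 37, against 2740 with all libraries. The shared genes made up 29.6% of the genes higher and 25.4% of those lower in the second comparison. Since activators stood against inhibitors of the same pathways, solvent and agent cannot be told apart in it. Embryo batch cannot be told apart either. A batch shared by a treatment and its vehicle would recur in both comparisons, although they share no library.

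*chordin* (OFUSG13105), which encodes the extracellular BMP antagonist, was the only gene called among the 6 BMP pathway genes, against 17.1% of all genes called. It had 902 and 909 CPM in Mock, against 548 and 461 CPM in 0.2% DMSO and 538 and 557 CPM in 0.4% DMSO. The groups did not overlap, and the log2 fold change was 0.78 ± 0.12 (SE, n = 2 Mock and 4 DMSO, adjusted p = 0.00573 in edgeR). The call was lost with Mock replicate 1 left out (adjusted p = 0.0809) or with Mock replicate 2 left out (adjusted p = 0.106), at log2 changes of 0.79 and 0.77. Both Mock libraries were above all 12 others, as rBMP4 embryos had 438 and 383 CPM, rActivin A 233 and 216 CPM, DMH1 426 and 453 CPM and SB431542 421 and 449 CPM. Read against Mock, *chordin* was thus lower in every other treatment, the vehicles included, whereas rBMP4 lay just below the lowest DMSO library.

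The BMP ligands did not pass the test. *bmp5-8* (OFUSG23310) had 153 and 138 CPM in Mock, against 107, 91.8, 112 and 121 CPM in the 2 replicates of 0.2% and of 0.4% DMSO. Both Mock libraries were above all 4, with a log2 difference of 0.43 ± 0.14 (SE) and an adjusted p of 0.0705 in edgeR. Against 0.2% DMSO alone, the adjusted p was 0.0257, and against 0.4% DMSO alone 0.0242. *bmp2/4* (OFUSG12159) had 78.7 and 79.0 CPM in Mock, against 84.0, 78.8, 79.1 and 75.2 CPM in DMSO, which overlapped (log2 difference -0.01 ± 0.12, SE, adjusted p = 0.950 in edgeR). Its level in Mock lay within the range of the DMSO libraries, while rBMP4 (22.1 and 16.9 CPM) and rActivin A embryos (31.8 and 32.2 CPM) were below all of them.

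Among the receptors, *bmpr2* (OFUSG26337), the type II receptor, had 61.8 and 63.2 CPM in Mock, against 55.1 and 53.9 CPM in 0.2% DMSO and 41.0 and 39.5 CPM in 0.4% DMSO. Both Mock libraries were above all 4, yet the DMSO groups were far apart and the gene was not called (log2 difference 0.40 ± 0.18, SE, adjusted p = 0.149 in edgeR). Against 0.4% DMSO alone the log2 difference was 0.63 (adjusted p = 0.00101) and against 0.2% DMSO alone 0.20 (adjusted p = 0.259). With 105 and 90.8 CPM in rBMP4 and 85.3 and 88.9 CPM in rActivin A, and 37.1 to 41.4 CPM in the inhibitor libraries, all 6 libraries without DMSO were above all 8 with it. The type I receptor *bmpr1* (OFUSG18180) had 130 and 165 CPM in Mock, against 134, 163, 134 and 96.5 CPM in DMSO, and the groups overlapped (log2 difference 0.16 ± 0.20, SE, adjusted p = 0.610 in edgeR).

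The intracellular transducer *smad1/5/8* (OFUSG02732) had 423 and 405 CPM in Mock, against 438, 381, 371 and 310 CPM in DMSO, again with overlap (log2 difference 0.14 ± 0.15, SE, adjusted p = 0.531 in edgeR). Against 0.4% DMSO alone it was called, at a log2 difference of 0.28 (adjusted p = 0.0446), and against 0.2% DMSO alone the log2 difference was 0.016 (adjusted p = 0.929). Of the 6 genes, then, 1 was called higher, none was called lower, 5 were not called, and 3 had both Mock libraries above all 4 DMSO libraries. Their median log2 difference was 0.28, against -0.05 over all genes. Scaled by transcript length, the level in Mock was 287 TPM (kallisto's length-scaled share of transcripts) for *chordin*, 251 for *smad1/5/8*, 117 for *bmp5-8*, 79.1 for *bmpr1*, 25.9 for *bmp2/4* and 13.3 for *bmpr2*, against 156, 215, 80.9, 66.9, 24.5 and 9.54 TPM in DMSO for the same genes.

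**Figure D5:**
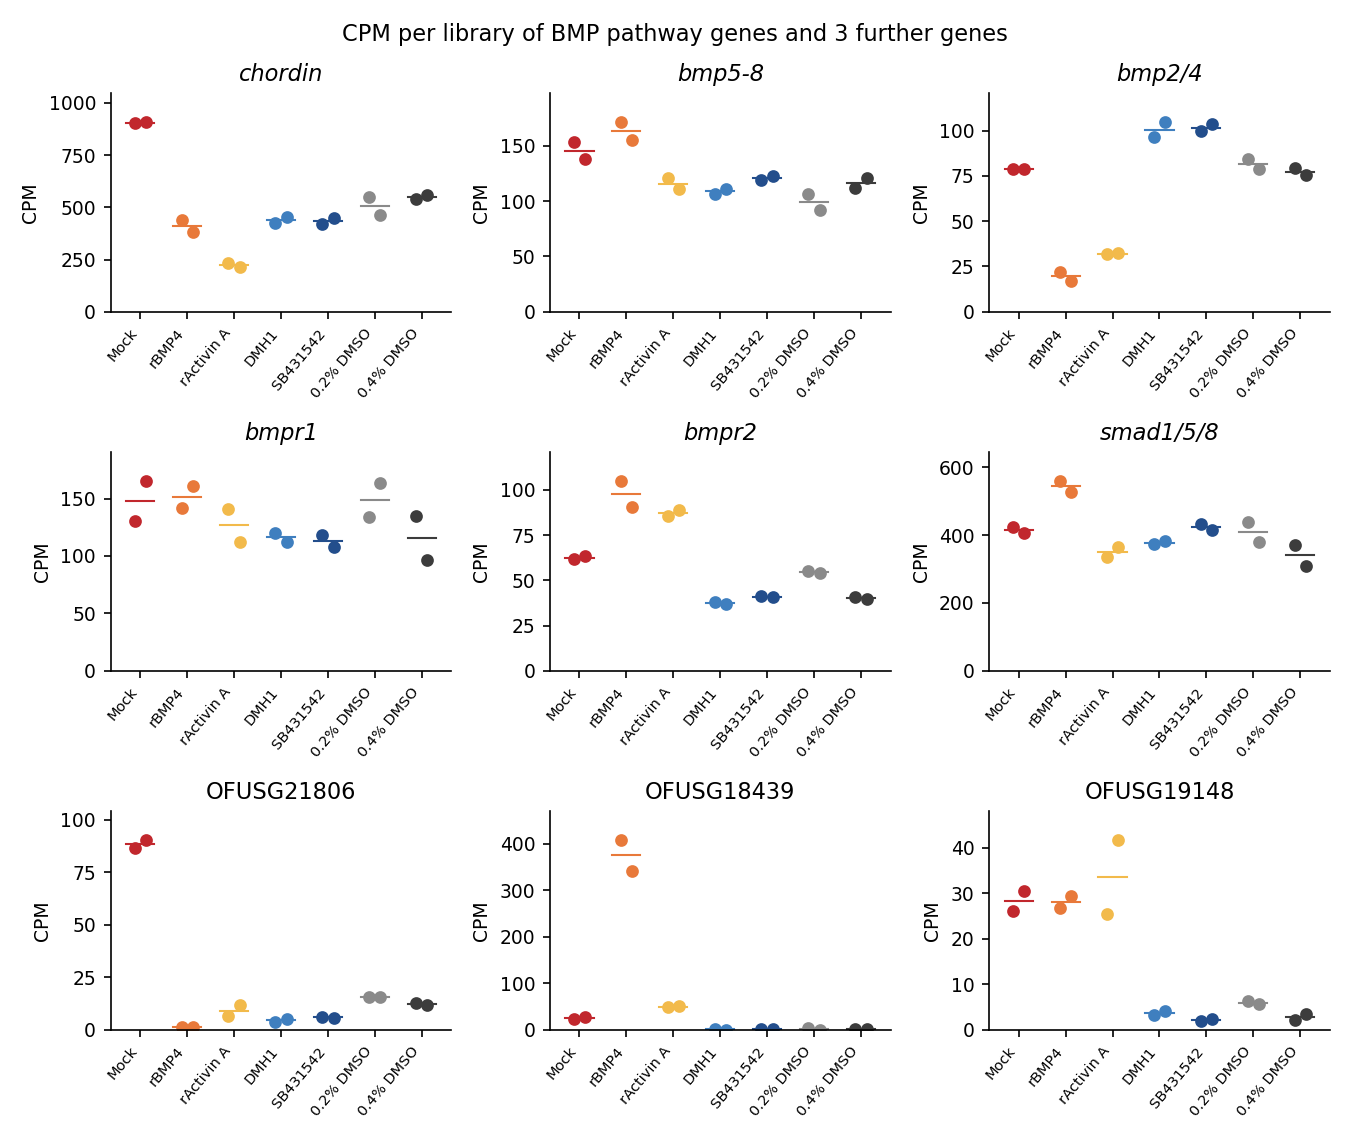
CPM of the 6 BMP pathway genes and of OFUSG21806, OFUSG18439 and OFUSG19148 in each library (points), with a bar at the mean of each treatment. *chordin* and OFUSG21806 are highest in the 2 Mock libraries, *bmp2/4* is alike in Mock and DMSO, and OFUSG19148 separates the 6 libraries without DMSO from the 8 with it.

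The largest changes were in genes seen in only 1 of the vehicles, none of which carries a name in the sources used here. They passed the low-count filter through that vehicle alone and were picked by size of change, so their p-values are no separate support. OFUSG23017 had 130 and 91 counts in Mock (5.01 and 4.00 CPM) and none in any DMSO library, so it was at least 119-fold higher in Mock, taking 3 counts over the group as the floor (adjusted p = 0.00319 in edgeR). It was also seen in rBMP4 (2.63 and 3.93 CPM), but was at or below 0.083 CPM in the other libraries. OFUSG00962 had 35 and 27 counts in Mock, none in DMSO, and was at least 33.5-fold higher by the same floor. It also had 12 and 15 counts in rBMP4, and 16 and 12 in DMH1, which was given in DMSO. In the other direction, OFUSG11809 had no count in Mock and 36, 2, 69 and 52 counts in DMSO, and was at least 34.5-fold lower in Mock (adjusted p = 0.0327 in edgeR). Its 4 DMSO libraries were uneven, and without 0.2% DMSO replicate 1 or 0.4% DMSO replicate 1 the call was lost (adjusted p = 0.0535 and 0.0662), as it was against 0.2% DMSO alone (adjusted p = 0.0704). OFUSG25127 had no count in Mock and 13, 25, 32 and 39 counts in DMSO, and was at least 23.2-fold lower. With Mock replicate 1 or 2 left out, these bounds were 16.1 and 18.4-fold for OFUSG11809 and 10.9 and 12.4-fold for OFUSG25127. The rActivin A libraries, without DMSO, had 0 and 10 counts of OFUSG11809 and 29 and 0 of OFUSG25127. The rBMP4 libraries had 1 and 8 counts of OFUSG11809 and 1 and 14 of OFUSG25127.

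Among the genes that separated all libraries without DMSO from all with it, OFUSG19148 had 26.1 and 30.5 CPM in Mock, 26.7 and 29.4 CPM in rBMP4 and 25.5 and 41.7 CPM in rActivin A. It had 1.90 to 4.20 CPM in the inhibitor libraries and 6.23, 5.63, 2.23 and 3.43 CPM in the DMSO controls. The 3 treatments without DMSO thus had like levels, several times those of all 4 groups with DMSO (Mock against DMSO log2 fold change 2.68 ± 0.36, SE, adjusted p = 0.00414 in edgeR). OFUSG18439 followed the same split but with unequal levels, at 24.0 and 26.7 CPM in Mock, 408 and 342 CPM in rBMP4 and 48.0 and 51.3 CPM in rActivin A, against 0.303 to 3.27 CPM in the DMSO controls (log2 fold change 3.84 ± 0.58, SE, adjusted p = 0.00573 in edgeR). Both rBMP4 libraries were far above both Mock libraries at this gene.

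On the lower side, OFUSG25599 had no count in any of the 6 libraries without DMSO, and 15, 44, 4 and 4 counts in the DMSO controls, which puts it at least 12.6-fold lower in Mock (adjusted p = 0.0408 in edgeR). It passed the low-count filter through the DMSO libraries alone. The bound was 6.54-fold without 0.2% DMSO replicate 2, which held most of the counts, and 5.90 and 6.73-fold without Mock replicate 1 or 2. Its call was lost without 0.2% DMSO replicate 1 (adjusted p = 0.0649) and with the libraries thinned to equal depth (adjusted p = 0.0513). OFUSG15850 had 0.116 and 0.396 CPM in Mock, against 1.68 and 1.26 CPM in 0.2% DMSO and 5.29 and 5.79 CPM in 0.4% DMSO, with a log2 fold change of -3.77 ± 0.90 (SE, adjusted p = 0.0242 in edgeR). With Mock replicate 1 or 2 left out, its log2 fold change was -3.12 and -4.85, and without 0.4% DMSO replicate 1 its adjusted p was 0.0541. Both low genes were thus read from few counts, and the DMSO groups were unequal in each.

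Genes apart in Mock alone were led by OFUSG21806 and OFUSG01771. OFUSG21806 had 86.4 and 90.4 CPM in Mock, against 15.4, 15.4, 12.8 and 11.6 CPM in DMSO, a log2 fold change of 2.67 ± 0.16 (SE, adjusted p = 0.000733 in edgeR). rBMP4 embryos had 1.37 and 1.13 CPM, below every DMSO library. OFUSG01771 had 55.1 and 49.8 CPM in Mock, against 8.93, 5.45, 8.83 and 7.66 CPM in DMSO (log2 fold change 2.76 ± 0.21, SE, adjusted p = 0.00113 in edgeR), and rBMP4 embryos had 1.94 and 2.22 CPM. With *chordin*, these 2 were among 25 of the 1859 genes called higher in Mock (1.34%) at which both rBMP4 libraries were below all 4 DMSO libraries. Over all genes tested this share was 22.2%. At 1705 of the 1859 (91.7%) both rBMP4 libraries were above, against 23.5% over all genes. The 1859 genes were called against the same 4 DMSO libraries, so a gene low in these by chance would lie above in rBMP4 too.

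Lower in Mock than in all other libraries were OFUSG01455, with 0.116 and 0.044 CPM in Mock against 0.715 to 1.18 CPM in DMSO, and OFUSG18487, with 0.308 and 0.088 CPM in Mock against 0.868 to 1.68 CPM in DMSO. They fell by 3.41 and 2.61 on the log2 scale (adjusted p = 0.0156 and 0.0314 in edgeR), from 4 and 10 counts over both Mock libraries. Without Mock replicate 1 or 2, the log2 fold change was -4.21 and -2.93 for OFUSG01455 and -3.74 and -2.01 for OFUSG18487. Without 0.4% DMSO replicate 1 or replicate 2, OFUSG18487 was not called (adjusted p = 0.0694 and 0.0598), nor was it against 0.2% DMSO alone (adjusted p = 0.0676). Of the 13 called genes named here, OFUSG21806 and OFUSG01771 kept their call with either Mock library left out, and the other 11 did not, at adjusted p between 0.0545 and 0.260 in those fits.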

How the data were processed

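Whole embryos were collected at 6 hpf and strand-specific libraries of polyadenylated RNA were sequenced in paired-end mode. The authors trimmed the reads and quantified them with kallisto (version 0.46.2). The deposited files hold estimated counts and TPM per transcript, with 1 library per file. The strand setting of kallisto is not named in the labels or methods. Here the estimated counts of the 31977 transcripts shared by all files were summed to 27040 genes (3656 with several transcripts) and rounded. After filterByExpr and TMM scaling, genes were tested with the quasi-likelihood method in edgeR (version 4.0.16, R version 4.3.3), and p-values were adjusted by Benjamini-Hochberg across every gene tested. Mock was set against the 4 DMSO libraries as 1 group. The test was checked on simulated counts with 200 changed genes, all drawn from genes above a minimum mean count. The shares recovered therefore do not cover genes with few counts. For Mock against DMSO it called 33% of 2-fold and 82% of 4-fold changes, with 8 false calls. For the comparison of the other 8 libraries it called 75% and 96%, with 16 false calls. A gene not called is therefore not shown to be unchanged. Sides were read from log2 CPM with a prior count of 2. TPM was used only for levels between genes and for an alternative. Fold bounds use a floor of 3 counts over a group, which covers counting error only.

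Named genes were the 6 BMP pathway genes that the study pairs with identifiers and, in each direction, 2 genes each by largest change among genes averaging at least 1 CPM in the higher group, by widest gap between libraries without and with DMSO, and by widest gap between Mock and all others. The members and lists were chosen with earlier results of these data known. Genes picked by change or gap were picked from the libraries that gave their p-values, which are therefore no separate support. Alternatives were DESeq2 (version 1.42.0) or its size factors, no filter, minimum log2 changes of 0.5 and 1, transcripts in place of genes, other groupings of the libraries, thinning, a replicate block and leaving out each library.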

Additional observations from a re-analysis of the deposited data

Results flagged for a closer look

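Of the 18 named genes, 3 differed between the 2 DMSO controls at an adjusted p below 0.05 in edgeR, with Mock and both DMSO groups fitted together. *bmpr2* was lower in 0.4% than in 0.2% DMSO (log2 difference -0.44, adjusted p = 0.0409), as was OFUSG19148 (log2 difference -1.08, adjusted p = 0.0238), and OFUSG15850 was higher (log2 difference 1.92, adjusted p = 0.0235). The log2 difference of Mock was 0.63 against 0.4% and 0.20 against 0.2% DMSO for *bmpr2*, 3.34 and 2.25 for OFUSG19148, and -4.45 and -2.52 for OFUSG15850. The concentration and the start of treatment both differ between these controls and cannot be told apart. Over 22 values looked at, none passed the critical value of Dixon's ratio, the gap of 1 DMSO library to the nearest of the other 3 over their whole range. *chordin* (ratio 0.82) and OFUSG11809 (ratio 0.81), with 2 counts in 0.2% DMSO replicate 2 against 36 to 69 in the others, came closest among the named genes.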

How the results depend on the processing

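The 3372 calls between Mock and DMSO became 8556 with all 14 libraries fitted together, 7385 with 3 groups, 10053 against 0.4% DMSO alone, and 1803 at a log2 change of at least 1. With 1 library left out the count lay between 42 and 4161. For rBMP4 and rActivin A against DMH1 and SB431542, the 9966 calls became 3604 with 2 groups of 4, and 6473 and 3031 at log2 changes of at least 0.5 and 1. The 2740 genes called in both became 5871 with all 14 libraries, 815 at a log2 change of at least 1, 1530 with 2 groups of 4 in the second comparison, and between 37 and 3309 with 1 library left out. The count of genes on one side of DMSO stayed within 1.5 times of 9631 under all alternatives run, from 9456 with TPM to 11930. Leaving out a library can only keep or raise this count, so those settings could not have lowered it. The cause of these shifts was not tested beyond the samples and thresholds that each setting itself changes.

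No large effect shared by replicate number was seen. The differences between replicates 1 and 2 correlated over genes at r = 0.06 between Mock and 0.2% DMSO, -0.08 between Mock and 0.4% DMSO and -0.01 between the DMSO groups. These values cannot tell whether libraries with the same replicate number shared a culture or a batch of embryos. With a replicate block, 2107 genes were called between Mock and DMSO and 1797 in both comparisons.

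Of 270 values of named genes under alternatives, 221 kept sign and call, 34 lost the call, 9 gained it and 6 turned sign. The log2 difference of *bmp2/4* turned to 0.00046 without a filter, 0.015 after thinning, 0.021 without 0.2% DMSO replicate 1 and 0.027 against 0.4% DMSO alone, and that of *bmpr1* to -0.023 without Mock replicate 2 and -0.0071 against 0.2% DMSO alone, none of them called. With 1 library left out, these differences lay between -0.036 and 0.021 for *bmp2/4* and between -0.023 and 0.32 for *bmpr1*.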

Other observations

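Before the filter on low counts, 140 genes had counts in both Mock libraries and none in any DMSO library, and 110 had counts in all 4 DMSO libraries and none in either Mock library. Both Mock libraries were deeper than all DMSO libraries, and the part of depth in these numbers was not tested. The 0.2% DMSO libraries leaned slightly towards Mock. At the 5013 genes with Mock above DMSO, both were above both 0.4% DMSO libraries at 1700 (33.9%) and below at 883 (17.6%). At the 4618 genes with Mock below DMSO, they were below at 1516 (32.8%) and above at 1118 (24.2%). Over all genes tested, they were above at 5940 (30.1%) and below at 5566 (28.2%). The shares on the side of Mock were thus near those over all genes. These controls differ in the start of treatment as well as in concentration.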
